A study of Mus musculus with 13 samples.

Results

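The cells of deposited cluster 8 were examined in a mouse spinal cord single-cell RNA-seq data set. Membership was taken from the cluster number that the deposited cell table gives each cell, and 139 of 22148 cells carried the number 8. Of these, 125 were annotated Monocyte and 14 Neutrophil. The mice carried the alleles Cx3cr1YFPCreERT2:R26tdTomato, in which the Cx3cr1 locus drives a tamoxifen-dependent Cre and recombined cells express tdTomato. Experimental autoimmune encephalomyelitis (EAE), an immune-mediated inflammation of the central nervous system, was sampled at its peak and in its chronic phase. Live myeloid cells were sorted into a resident and an infiltrating fraction; control mice gave resident fractions only. There were 13 libraries: 3 control resident, 2 peak resident, 3 chronic resident, 2 peak infiltrating and 3 chronic infiltrating. All groups shared the genotype, and no age or tamoxifen schedule was given in the sources used here. The cell table names libraries without a replicate number, so they are called a, b and c within a group, and these letters pair nothing across groups.

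Monocytes in mouse blood fall into classical cells, which carry Ly6C and the chemokine receptor CCR2 and enter inflamed tissue, and patrolling cells, which crawl along the vessel wall, depend on the nuclear receptor NR4A1 and express CX3CR1 at a high level. Neutrophils make their granule proteins in waves as they mature: elastase and myeloperoxidase first, then lactoferrin, cathelicidin and neutrophilic granule protein, and last gelatinase. Mature neutrophils hold large amounts of S100A8 and S100A9, which form calprotectin, and carry the chemokine receptor CXCR2. The same cluster number here covered cells with patrolling monocyte transcripts, cells with neutrophil transcripts, and cells with classical monocyte transcripts and few patrolling ones. Most members belonged to the first kind. The kinds overlapped, since some cells held both patrolling and classical monocyte transcripts.

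Each cluster 8 cell yielded between 1118 and 63100 unique molecular identifiers (UMIs, counted transcript molecules), with a median of 5260 and a median of 1962 genes. The 1429 cluster 6 cells annotated Monocyte, used below for comparison, had a median of 10760 UMIs. Annotated T cells, which should lack the myeloid markers and show the level of free RNA, had a median of 4080.5, and microglia one of 3326.5. No member was marked as a doublet, nor was any cluster 6 monocyte, T cell or microglia, so the mark does not single out members. None of the 110 cells whose barcode recurred in another library was a member. Of the 139 members, 4 (2.88%) held 3 or more T cell list genes, against 0.350% of cluster 6 monocytes. For microglia list genes it was 3 members (2.16%) against 12.4%, with a maximum of 10 of 10 genes in a member. Whether any member mixes 2 cells was not tested. Intervals are 95% exact binomial intervals and cover counting error only. The deposited cell table also gives libraries an identifier in a column headed SLX, with 4 values. Libraries sharing a value are called a pool here, A to D. The header does not say what the identifier stands for.

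Most cluster 8 cells came from infiltrating libraries. The 5 infiltrating libraries supplied 123 of 139 members (88.5%), and the 8 resident libraries supplied 16. Peak infiltrating a had 26 members among 1948 cells (1.33%), and peak infiltrating b had 5 among 433 (1.15%). Chronic infiltrating a had 25 among 612 (4.08%), b had 24 among 2359 (1.02%) and c had 43 among 553 (7.78%). Over all cells, the chronic libraries fell on both sides of the peak libraries. Chronic infiltrating b was mostly microglia, with 444 of its 2359 cells outside that annotation. Over cells outside annotated microglia, the shares were 4.16%, 5.41% and 8.98% in chronic infiltrating a, b and c against 1.35% and 1.16% in peak infiltrating a and b, with no overlap. Among resident libraries, chronic resident a held 5 members (0.238%), b held 2 and c held 1. Both peak resident libraries held none, and so did control b and control c. Control a held 8 among 1794 cells (0.446%), all annotated Monocyte, and shared its pool with peak infiltrating a. Over cells outside annotated microglia, control a held 8 of 25 (32.0%, interval 14.9 to 53.5), above every infiltrating library. On the same count chronic resident a held 5 of 136 (3.68%), above both peak infiltrating libraries. Chronic resident b and c lay below them, at 0.939% and 0.855%. A count of 0, taken as up to 3 cells of the total, allows a share of up to 0.260% in control b, 0.0921% in control c, 0.565% in peak resident a and 0.408% in peak resident b. The upper ends of the exact intervals, as drawn in the plot of members by library, were 0.319%, 0.113%, 0.692% and 0.50%.

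**Figure D1:**
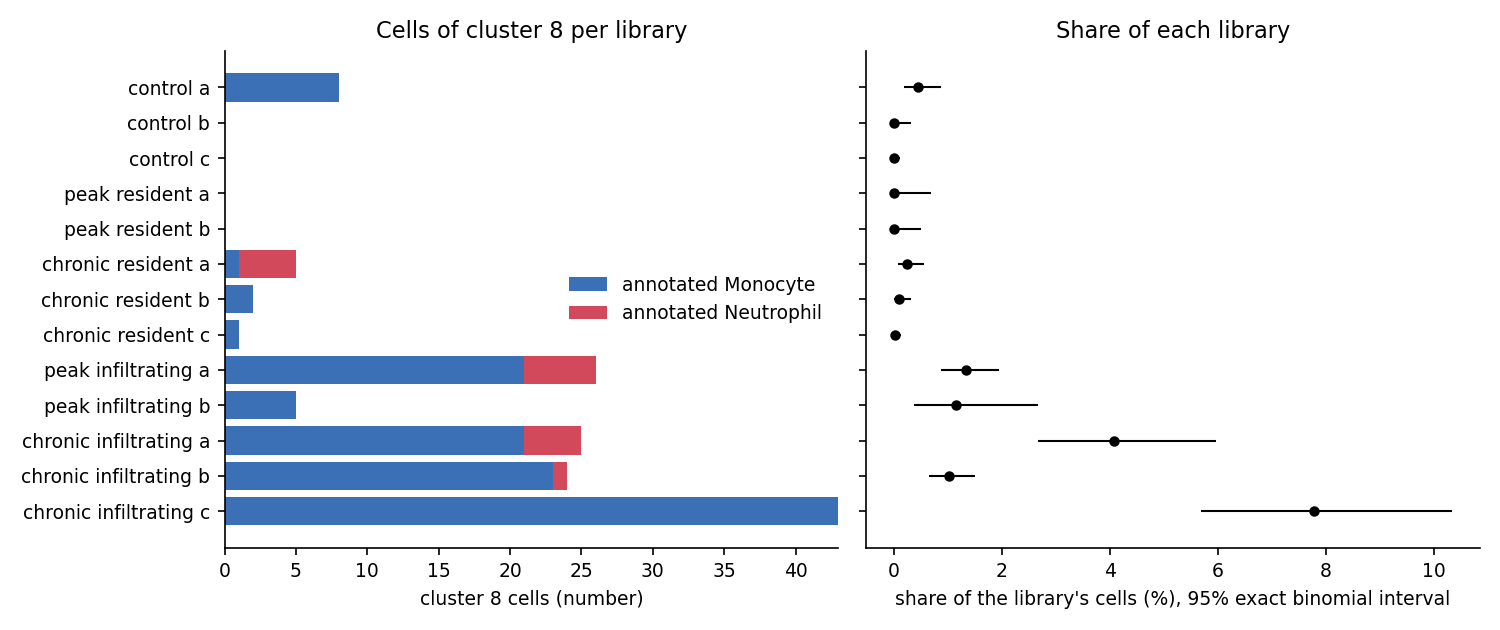
Cells of cluster 8 in each of the 13 libraries. Left, number of cells, with cells annotated Monocyte in blue and those annotated Neutrophil in red; right, share of the library's cells in percent with its 95% exact binomial interval. The 3 chronic infiltrating libraries spread from 1.02% to 7.78%, and 4 libraries of the resident fraction hold no member.

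Within EAE, the share was 3.07% ± 2.92 (SD, n = 5) in infiltrating and 0.0698% ± 0.101 (SD, n = 5) in resident libraries, with no overlap (two-sided exact permutation p = 0.00794, the smallest this design allows, and 0.0317 after Benjamini-Hochberg adjustment over 4 comparisons). The fractions were made by the sort gate and resident libraries were mostly microglia; the part of the gate in this difference was not tested. Within pools, a comparison added after seeing the data, the difference was 7.75 percentage points in pool B (1 infiltrating and 1 resident library), 1.15 in pool C (1 and 2) and 2.39 in pool D (2 and 2), and pool A held no resident EAE library. The mean of these was 3.77 (two-sided exact permutation within pools p = 0.0278, the smallest its 36 arrangements allow). Over cells outside annotated microglia, the within-pool differences were 8.12, 1.16 and 2.47 percentage points in pools B, C and D, with a mean of 3.92. Without regard to pool, the difference over those cells was 3.12 percentage points with an exact permutation p of 0.0556. Chronic infiltrating libraries averaged 4.29% ± 3.38 (SD, n = 3) against 1.24% ± 0.127 (SD, n = 2) at the peak. That difference of 3.05 percentage points did not exceed the spread between libraries (exact permutation p = 0.4, adjusted 0.8; the smallest possible p is 0.1). With 1 library left out it ran from 1.31 to 4.69, the lowest without chronic infiltrating c (exact permutation p from 0.333 to 1). Over cells outside annotated microglia the difference was 4.93 percentage points (exact permutation p = 0.2). No pool held infiltrating libraries of both stages, so it cannot be taken within pools. Peak resident and chronic resident libraries differed from control by -0.149 and -0.0323 percentage points (exact permutation p = 1 for both), and the second changes sign when control a is left out (0.116). Nothing in the labels says whether libraries came from separate mice beyond calling them biological replicates.

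Counted against cluster 6 monocytes rather than against all cells, the infiltrating libraries ordered by stage. There were 2.59 cluster 8 cells per 100 cluster 6 monocytes in peak infiltrating a and 2.91 in b. In the chronic libraries the ratio was 18.4 in a, 44.4 in b and 100.0 in c. This ratio was chosen after the counts were seen and was not tested. Cluster 6 monocytes numbered 1002 and 172 in the peak libraries and 136, 54 and 43 in the chronic ones, so the ratio moves with its denominator, and stage cannot be told apart from pool.

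S100a8 and S100a9, the calprotectin subunits, were carried by a minority of cluster 8 cells. S100a8 was present in 26 of 139 cells (18.7%, interval 12.6 to 26.2) and S100a9 in 11 (7.91%, interval 4.02 to 13.7), and 27 cells (19.4%) held at least 1 UMI of either. In cluster 6 monocytes, S100a8 was present in 38.0% of cells and S100a9 in 1.19%. T cells held S100a8 in 1.92% and S100a9 in 0.174%. With every cell thinned to 800 UMIs, S100a8 was present in 10.7% of cluster 8 cells and 6.71% of cluster 6 monocytes, so the order of the unthinned shares went with depth and no order is read from them. S100a9 stayed apart under thinning, at 7.17% against 0.169%.

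The S100 UMIs sat in very few cells. Cluster 8 held 7153 UMIs of S100a8, of which 91.1% came from 3 cells, and 7325 UMIs of S100a9, of which 87.8% came from 3 cells. All 14 Neutrophil-annotated cells held S100a8, against 12 of the 125 Monocyte-annotated cells, whose S100a8 UMIs summed to 28. By library, S100a9 UMIs were 3893 in chronic infiltrating a, 1906 in chronic infiltrating b, 978 in peak infiltrating a and 548 in chronic resident a. Peak infiltrating b, chronic infiltrating c, control a and the other two chronic resident libraries had none. In chronic resident a, 4 of 5 members were Neutrophil-annotated, and they were the only Neutrophil-annotated cells of any resident library.

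Ngp, encoding neutrophilic granule protein, and Camp, encoding cathelicidin, came from essentially 2 cells. Ngp was found in 3 of 139 cells with 5174 UMIs, and Camp in 3 cells with 4519 UMIs. One cell of chronic infiltrating a held 3901 Ngp and 3061 Camp UMIs of its 29128 in all, and one cell of chronic infiltrating b held 1271 and 1457 of 14167. Both also carried Ltf, the lactoferrin gene, at 173 and 104 UMIs, and S100a9 at 3547 and 1906. The third Ngp cell had 2 UMIs and the third Camp cell 1. Outside cluster 8 no cell held 5 or more UMIs of Ngp or Camp, and in cluster 6 monocytes Ngp was present in 0.700% and Camp in 0.350% of cells, always at 1 or 2 UMIs.

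Elane, the neutrophil elastase gene of the earliest granules, was found mostly in other cells. The Ngp and Camp cell of chronic infiltrating b held 3 Elane UMIs. Elane was found in 7 cells (5.04%), with 243 of its 270 UMIs in 1 cell of peak infiltrating a. That cell also held 118 UMIs of Mpo (myeloperoxidase), 202 of Ctsg (cathepsin G) and 481 of Prtn3 (proteinase 3), with 15 of the proliferation gene Mki67, and it was the deepest of the cluster at 63100 UMIs. It held 27 S100a8 UMIs and no S100a9, Ngp or Camp. Of the other 6 Elane cells, 4 were Monocyte-annotated. In all, 10 of 139 cells (7.19%) held Ngp, Camp or Elane, 5 under each annotation. Elane was present in 0.560% of cluster 6 monocytes and in 1 of 574 T cells.

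Ear2, an eosinophil-associated ribonuclease that mouse patrolling monocytes transcribe, was the broadest of these markers. It was present in 91 of 139 cells (65.5%, interval 56.9 to 73.3), at 343 UMIs of which 14.3% came from 3 cells. In cluster 6 monocytes it was present in 4.06%, in microglia in 6 of 17670 cells, and in T cells in none of 574, which allows up to 0.523% of cells with a UMI, taken as 3 cells of the total (upper end of the exact interval 0.641%); this limits cells with a UMI, not cells expressing the gene. Thinned to 800 UMIs, the shares were 29.9% in cluster 8 and 0.549% in cluster 6 monocytes. Ear2 belongs to a family of closely related ribonuclease genes, so its count is uncertain wherever reads fit a near-identical copy. The eosinophil list was close to empty, with 136 of 139 cells holding none of its 7 genes, and the mast cell and basophil list was at 0 in every member.

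Ear2 varied between libraries. It was present in 7 of 8 members in control a, 5 of 5 in peak infiltrating b, 37 of 43 in chronic infiltrating c and 18 of 24 in chronic infiltrating b. It was present in 12 of 26 in peak infiltrating a and 10 of 25 in chronic infiltrating a. In chronic resident a it was present in 0 of 5, and in b and c in 1 cell each. As CPM, the UMIs of a gene scaled to a common total of the UMIs of cluster 8, Ear2 stood at 150 in peak infiltrating a, 458 in peak infiltrating b, 391 in chronic infiltrating a, 798 in b and 469 in c. Peak infiltrating a was the lowest, and the other 4 overlapped between stages.

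**Figure D2:**
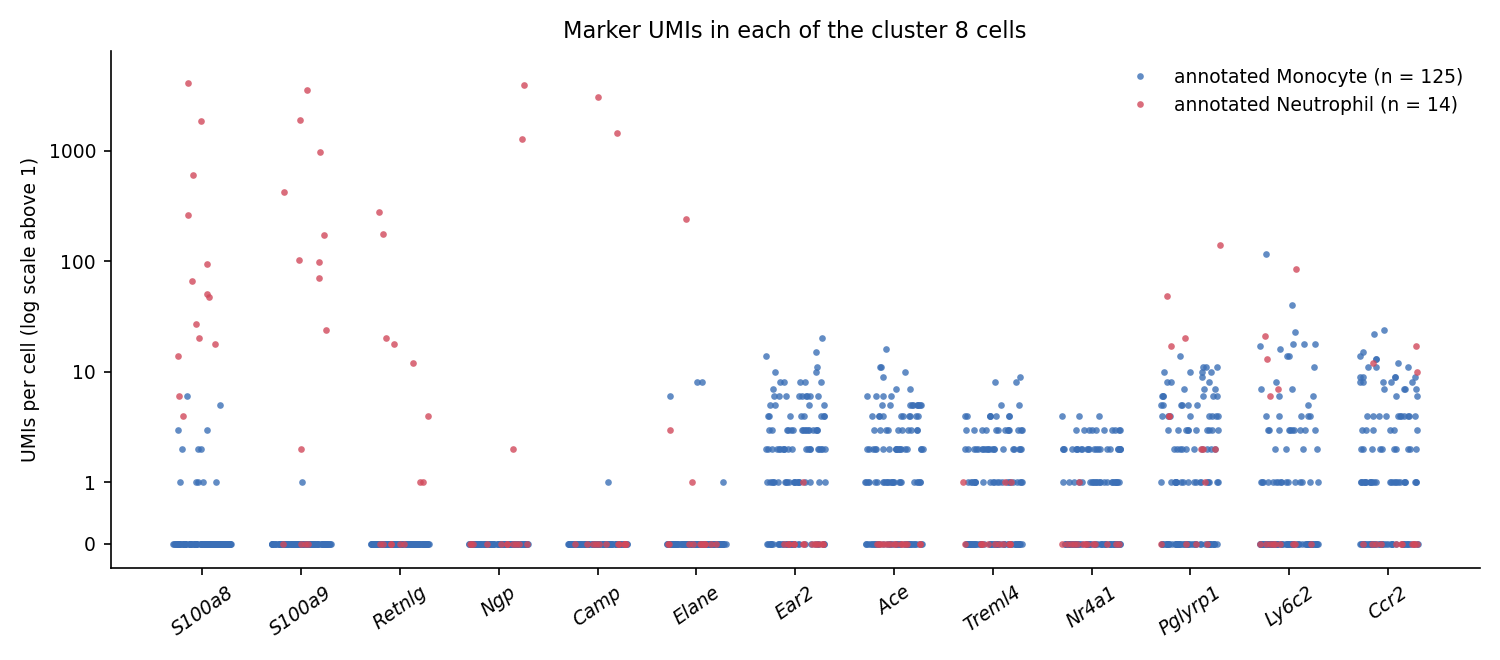
UMIs per cell (vertical axis, logarithmic above 1) of 13 marker genes in the 139 cluster 8 cells, blue for cells annotated Monocyte and red for cells annotated Neutrophil, spread sideways at random to part them. S100a9, Retnlg, Ngp and Camp lie at 0 in nearly all cells, values above 1000 UMIs occur only for S100a8, S100a9, Ngp and Camp, in 2 cells each, whereas Ear2, Ace and Treml4 lie between 1 and 20 UMIs in most Monocyte-annotated cells.

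Ear2 and the granule genes parted the cells. No cell held both Ear2 and any of Ngp, Camp and Elane. Ear2 without S100a8 or S100a9 was found in 80 cells, all Monocyte-annotated. Ear2 with S100a8 or S100a9 was found in 11 cells, of which 1 was Neutrophil-annotated. Another 16 cells held S100a8 or S100a9 without Ear2, of which 13 were Neutrophil-annotated, and 5 of these 13 also held a granule gene. There were 5 cells with a granule gene alone and 27 with none of the 6 markers.

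The bases just upstream are shown for S100a9, Ngp and Camp, whose UMIs came from a few cells, and for Ear2, which was spread over most. Each sequence is the 250 bases before the annotated start, 5′ to 3′ on the gene's strand, from RefSeq on GRCm38.p6, and the capitals mark matches to TTNNGNAA on either strand, a form of the site bound by C/EBP factors, which drive granule genes during neutrophil maturation.
S100a9, chr3:90695722-90695971, minus strand: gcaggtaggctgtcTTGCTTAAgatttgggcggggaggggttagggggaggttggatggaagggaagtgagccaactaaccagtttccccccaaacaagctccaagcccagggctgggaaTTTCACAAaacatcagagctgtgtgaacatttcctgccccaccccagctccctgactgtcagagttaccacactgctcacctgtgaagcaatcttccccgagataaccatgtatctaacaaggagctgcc
Ngp, chr9:110419558-110419807, plus strand: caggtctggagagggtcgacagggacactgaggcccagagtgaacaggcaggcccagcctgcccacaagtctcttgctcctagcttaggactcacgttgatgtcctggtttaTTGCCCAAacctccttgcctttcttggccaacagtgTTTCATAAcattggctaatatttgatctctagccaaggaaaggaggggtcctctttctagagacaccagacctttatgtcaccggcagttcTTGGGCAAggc
Camp, chr9:109849457-109849706, minus strand: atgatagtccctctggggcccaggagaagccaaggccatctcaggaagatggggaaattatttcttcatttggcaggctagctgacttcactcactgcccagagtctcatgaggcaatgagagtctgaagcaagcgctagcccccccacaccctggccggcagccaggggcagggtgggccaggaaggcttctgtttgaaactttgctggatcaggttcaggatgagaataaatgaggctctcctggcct
Ear2, chr14:44102404-44102653, plus strand: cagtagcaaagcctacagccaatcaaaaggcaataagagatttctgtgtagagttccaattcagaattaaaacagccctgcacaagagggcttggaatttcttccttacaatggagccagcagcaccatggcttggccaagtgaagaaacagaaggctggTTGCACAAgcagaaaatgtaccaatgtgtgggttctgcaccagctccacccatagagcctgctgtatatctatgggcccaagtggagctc
S100a9 has 2 matches and Ngp has 3, the nearest of which ends 4 bases before the Ngp start. Ear2 has 1, ending 83 bases before its start, and Camp has none. These letters occur in 36.8% of 32851 mouse promoter windows of this length, so a match is a description only. The NR4A1 monomer site AAAGGTCA, found in 1.34% of windows on either strand, was in none of the 6 markers, Ear2 included. The PU.1 site GAGGAAGT, found in 2.44%, was in S100a8 and Elane.

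The 14 Neutrophil-annotated cells were not of one kind. In 8 of them Cxcr2, the receptor of mature neutrophils, was detected, with Mmp9 (gelatinase B) in 7 and the gelatinase-granule gene Retnlg in 6 of the same cells. These 8 held few UMIs, from 1150 to 5773, and all held S100a9. They came from chronic resident a (4), chronic infiltrating a (3) and peak infiltrating a (1). None of the 125 Monocyte-annotated cells held Cxcr2, Mmp9 or Retnlg. Ly6g, the standard surface marker of mouse neutrophils, was detected in 3 of the 14 and in no other member.

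The 6 Neutrophil-annotated cells without Cxcr2 were deeper, at 2509 to 63100 UMIs. They comprised both Ngp and Camp cells, the cell with 243 Elane UMIs and 3 more cells of peak infiltrating a. Those 3 held 4 to 18 UMIs of S100a8, no S100a9 and 9 to 233 UMIs of Chil3, a chitinase-like gene that classical monocytes and immature neutrophils both transcribe. So 4 of 14 Neutrophil-annotated cells, all from peak infiltrating a, held no S100a9. Cell-cycle genes were found at 3 or more of 10 in 3 of these 6 cells, in none of the 8 with Cxcr2 and in 6 of the 125 Monocyte-annotated cells.

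The patrolling monocyte list was carried by most of the rest. Of its 16 genes, Monocyte-annotated members held a median of 9, and Neutrophil-annotated members a median of 2, at median depths of 5279 and 2553.5 UMIs. Cluster 6 monocytes held a median of 3. Thinned to 800 UMIs, the means were 3.70, 1.38 and 0.970 in the same order. Ace, the angiotensin-converting enzyme gene, was present in 84 members, Treml4 in 71, Spn, which encodes the CD43 antigen of patrolling monocytes, in 66 and Nr4a1 in 61. Some list genes are shared with lymphocytes: Spn, Pglyrp1 and the integrin gene Itgal were present in 38.9%, 43.6% and 43.4% of T cells. At least 1 of Ear2, Ace and Treml4 was found in 106 members (76.3%). Among genes held by at least 10 members, those most often found with Ear2 were Ace (80.2% of Ear2-positive against 22.9% of other cells), Eno3 (63.7% against 8.33%), Bcl2a1b (68.1% against 16.7%), Pou2f2 (92.3% against 45.8%), Treml4 (67.0% against 20.8%) and Stap1 (62.6% against 16.7%). Found less often with Ear2 were Slpi (20.9% against 62.5%), Ccr1 (12.1% against 52.1%), Glipr2 (12.1% against 52.1%), Ly6c2 (27.5% against 66.7%) and Anxa1 (42.9% against 81.2%). These are descriptions over 91 and 48 cells, which also differ in library.

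For Ngp, the same ranking rests on 3 cells. All 3 held Mapk13, Rnf144a, S100a9, Wipi1, Pram1 and Rflnb, each found in 5.15% to 7.35% of the other 136 members. None of the 3 held Csf1r, the receptor that monocytes depend on and that 83.1% of the others held, nor Ms4a6c, Gngt2, Clec4a3, Pld4 or Itga4.

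**Figure D3:**
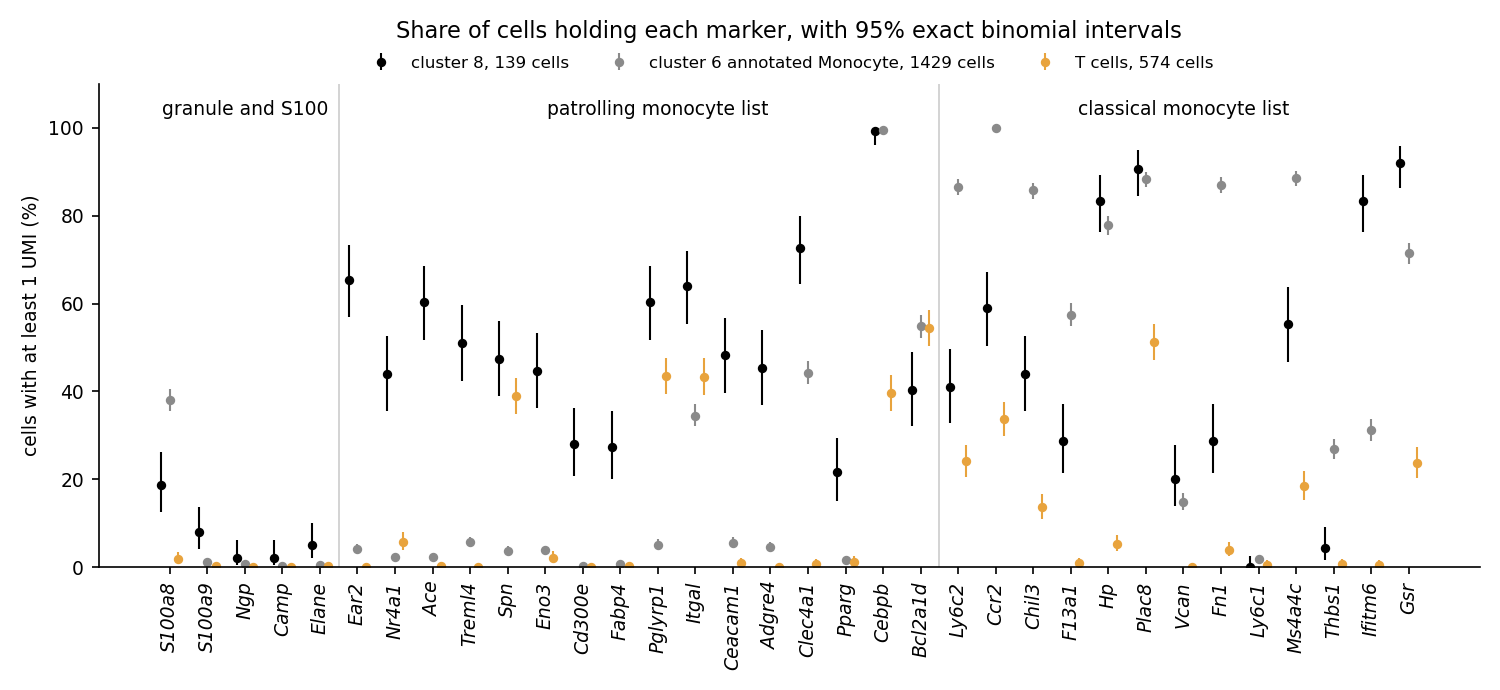
Share of cells with at least 1 UMI (percent, with 95% exact binomial intervals) for the S100 and granule markers, the 16 patrolling list genes and 13 classical list genes, in cluster 8 (black), cluster 6 cells annotated Monocyte (grey) and T cells (orange). Ear2, Ace, Treml4 and Nr4a1 lie between 43% and 66% in cluster 8 and under 6% in cluster 6, while Ly6c2, Ccr2, F13a1 and Fn1 lie lower in cluster 8, whose cells also hold fewer UMIs.

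A further group of Monocyte-annotated members held none of Ear2, Ace and Treml4. There were 23 such cells, 10 from chronic infiltrating a, 8 from peak infiltrating a, 2 each from chronic infiltrating b and c, and 1 from control a. They held a median of 3 patrolling and 10 of 14 classical list genes, against 10 and 5 in the 102 Monocyte-annotated cells with at least 1 of the 3. The 2 groups overlapped. Of the 102 cells, 33 held 7 or more classical list genes, and the 23 cells held up to 7 patrolling list genes. Ly6c2, which encodes Ly6C, was present in 21 of 23 against 31 of 102, Ccr2 in 21 of 23 against 58 of 102, and F13a1, the coagulation factor XIII subunit, in 19 of 23 against 18 of 102. The choice fixed 3 of the 16 patrolling genes at 0 in the 23 cells. Over the other 13 patrolling genes the medians were 3 and 8, at a median depth of 8754 UMIs in the 23 cells and 4637 in the 102. All 4 Monocyte-annotated cells with Elane were among the 23.

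**Figure D4:**
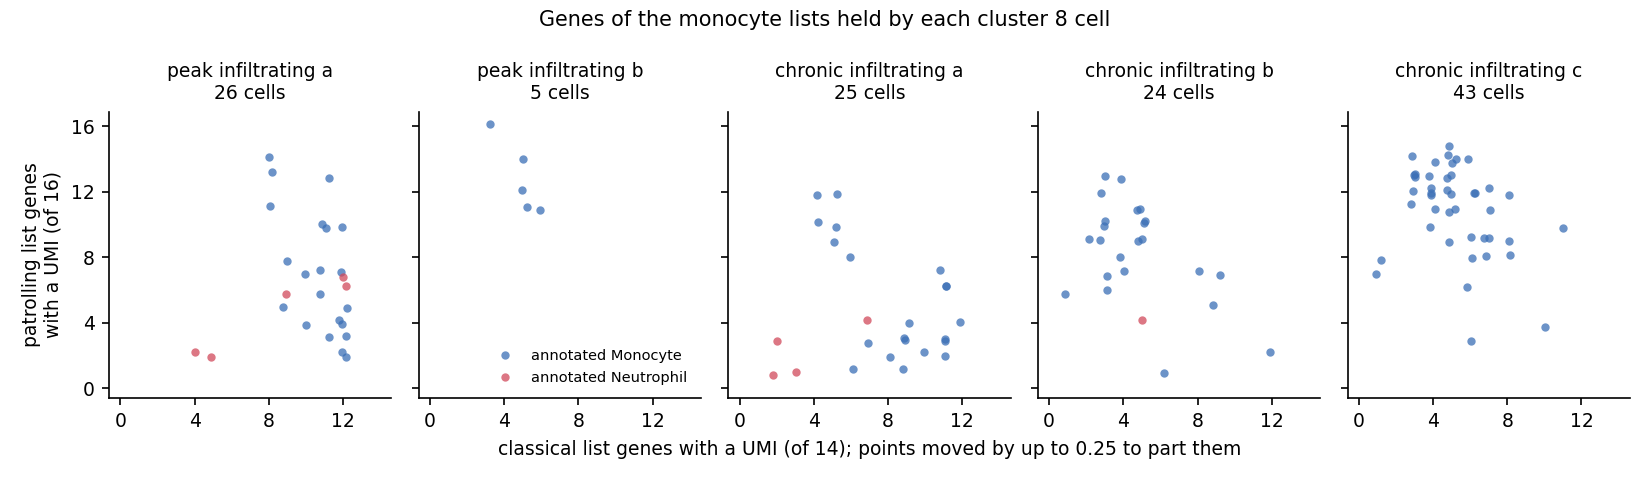
Number of patrolling list genes (vertical axis, of 16) and classical list genes (horizontal axis, of 14) with at least 1 UMI in each cluster 8 cell, one panel per infiltrating library, blue for cells annotated Monocyte and red for those annotated Neutrophil. Most cells of peak infiltrating b and chronic infiltrating c hold 9 or more patrolling genes. In chronic infiltrating c the number of classical genes varies, for example 3 and 11 in different cells. Peak infiltrating a and chronic infiltrating a also hold cells with few patrolling and many classical genes.

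The libraries therefore held different mixtures. Monocyte-annotated members had a median of 12 patrolling genes in peak infiltrating b and in chronic infiltrating c, 9.5 in control a, 9 in chronic infiltrating b, 7 in peak infiltrating a and 4 in chronic infiltrating a. With cells thinned to 800 UMIs the mean was 5.65 in peak infiltrating b, 4.80 in chronic infiltrating b, 4.36 in chronic infiltrating c, 3.93 in control a, 2.62 in chronic infiltrating a and 1.83 in peak infiltrating a. The 5 infiltrating libraries did not order by stage on either count. Median depth of the members was 11565.5 UMIs in peak infiltrating a and 2510 to 5023 in the other four, so the library with the lowest thinned value was the deepest.

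Against cluster 6 monocytes, cluster 8 was compared within each of the 5 infiltrating libraries as a log2 ratio of CPM, with 10 CPM added to both sides. The clusters were made from these genes, so the ratios are a description and carry no test. Of 9020 genes with at least 50 UMIs in the 2 clusters, 264 (2.93%) were higher in cluster 8 in every library with a median of at least 2-fold, and 375 (4.16%) were lower by the same rule. With 50 CPM added these counts were 124 and 138, and with 1 CPM added 371 and 672. Peak infiltrating b had 5 members with 26196 UMIs in all, so for weakly transcribed genes a single UMI could set the sign there. The patrolling list gave 14 of 16 higher, with a median log2 ratio of 3.44, while the median over all genes was -0.01. The 3 neutrophil granule lists, with 4, 9 and 9 genes measured, gave none higher in every library. Peak infiltrating b and chronic infiltrating c held no Neutrophil-annotated member. Genes confined to such cells could therefore not meet the rule, and nothing is read from this count.

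Genes furthest above cluster 6 were mostly of the patrolling list. Pglyrp1, which encodes a peptidoglycan recognition protein, led with a median log2 ratio of 5.50 (3.15 to 7.16), at 754 ± 553 CPM (SD, n = 5) against 5.36 ± 6.54. A single Neutrophil-annotated cell supplied 140 of its 180 UMIs in chronic infiltrating a, and another supplied 48 of 121 in b. Over Monocyte-annotated members alone, Pglyrp1 had a median log2 ratio of 5.28, at 476 ± 342 CPM. Ace followed at 5.20 (2.01 to 6.50) and Ear2 at 5.06 (3.14 to 6.07). Klf2, a transcription factor of quiescent leukocytes and endothelium, stood at 4.61 with the narrowest range among the first 5 (3.82 to 4.98), at 1689 ± 697 CPM against 62.4 ± 12.5. Eno3 (4.26), Treml4 (4.02), Rasgrp2 (3.96), the activating receptor gene Cd300e (3.91), Nr4a1 (3.55) and Spn (3.54) followed, then Ddit4, Cd300ld, Ceacam1, Nxpe4 and Trem3 at 3.05 to 3.44. In peak infiltrating a and chronic infiltrating a, the libraries with the most classical-type members, the ratios of Ace, Eno3, Treml4 and Spn were the 2 lowest.

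Genes furthest below cluster 6 included complement genes of macrophages and interferon-induced genes. The complement genes C1qa, C1qc and C1qb had median log2 ratios of -6.56, -5.80 and -4.79, and C1qa stood at 33.8 ± 48.9 CPM (SD, n = 5) against 1881 ± 1372. The interferon-induced chemokines Cxcl9 and Cxcl10 stood at -6.11 and -4.86, and the interferon-induced GTPase gene Iigp1 at -3.96, with 0 UMIs in cluster 8. Spp1, encoding osteopontin, stood at -3.89. The same rule also named AA467197, Cxcl16, C3ar1, Slamf7, Ms4a7, Pmepa1, Cfb and Ccl5, at -5.43 to -3.69. By list, 8 of 12 macrophage genes were lower (median -3.45), as were 7 of 7 MHC class II genes (-2.21), 8 of 12 interferon response genes (-1.84) and 6 of 14 chemokine and cytokine genes (-1.41). H2-Aa, an MHC class II chain, stood at 1069 CPM against 6304.

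**Figure D5:**
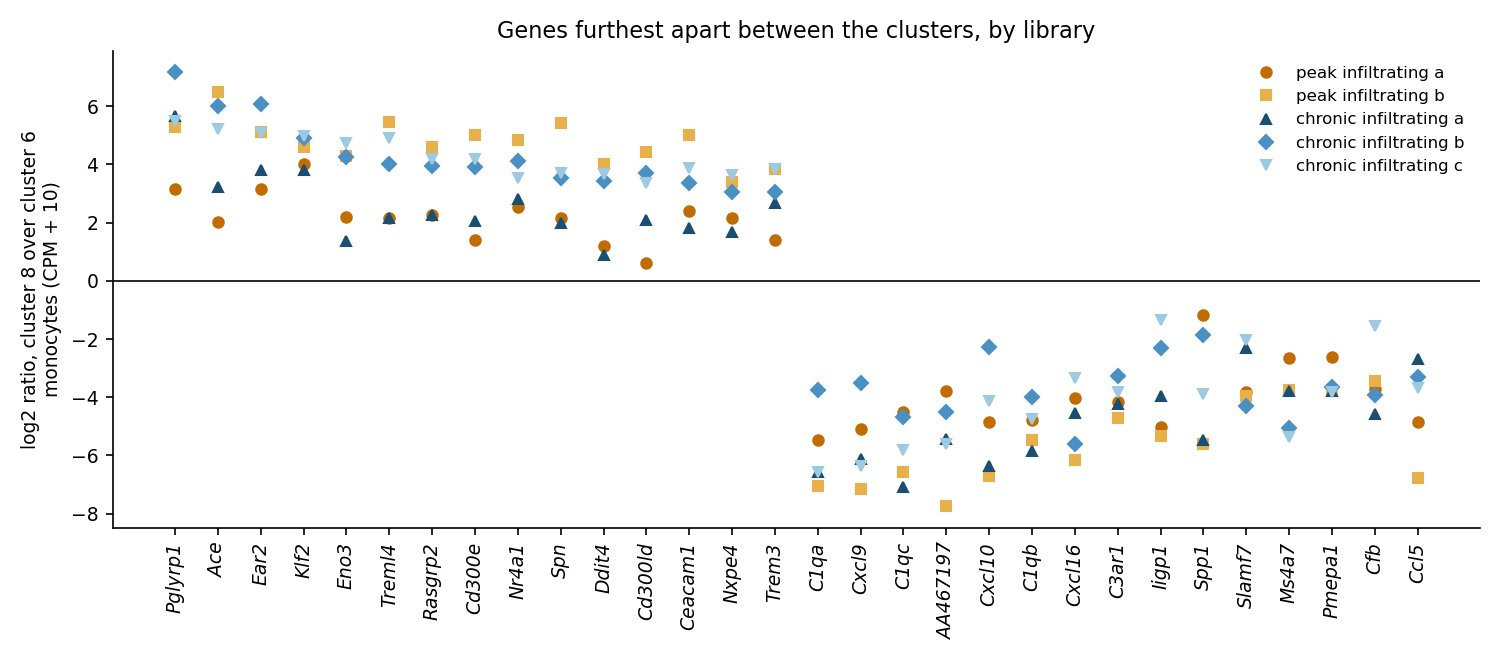
Log2 ratio of CPM (10 added) in cluster 8 over cluster 6 cells annotated Monocyte for the 15 genes furthest above and the 15 furthest below, with 1 point for each of the 5 infiltrating libraries. All 30 genes were chosen for having 1 sign in every library; among the 15 higher genes, the 2 lowest points are those of peak infiltrating a and chronic infiltrating a for every gene except Pglyrp1.

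The classical monocyte list did not move as a block. Of its 13 genes with enough UMIs, 3 were higher in every library, namely Ifitm6 (2.58), the glutathione reductase gene Gsr (2.11) and the haptoglobin gene Hp (2.05), and 1 was lower, Fn1 (-1.16), encoding fibronectin. Ly6c2 ranged from -4.52 to 1.04 between libraries and Ccr2 from -6.55 to -0.11, both lowest in peak infiltrating b, where 1 of 5 members held Ly6c2 and none held Ccr2. Cx3cr1, whose locus carries the transgene in these mice, had a median of -0.32 (-0.89 to 1.70) and was higher in 2 of 5 libraries. Csf1r was close to level at 0.03 (-0.71 to 0.69).

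Chronic and peak infiltrating libraries were compared within cluster 8 with edgeR's quasi-likelihood test on UMI sums per library. None of 2587 genes (0%) passed a Benjamini-Hochberg adjusted p of 0.05. At an unadjusted p under 0.05 there were 79 genes, and DESeq2 called 0 with 37 at that level. Ear2 had a log2 fold change of 1.13 ± 0.56 (SE) with an adjusted p of 1.00, and the 16 patrolling list genes had a median of 0.40, with 9 positive, beside -0.01 over all genes tested. The 6 MHC class II genes tested were all positive with a median of 1.36. Cd74, the invariant chain, stood at 503 CPM in peak infiltrating a, 4963 in peak infiltrating b, 8554 in chronic infiltrating a, 14267 in b and 7325 in c, so the chronic libraries lay above both peak libraries, yet its adjusted p was 1.00. Without peak infiltrating b, the library of 5 members, 7 genes passed, with Cd74, H2-Aa and H2-Eb1 higher in chronic libraries and Ctsg, Mpo, Prtn3 and Saa3 lower. The peak UMIs of Mpo, Ctsg and Prtn3 came mainly from 2 cells of peak infiltrating a. The Neutrophil-annotated cell with the most Elane UMIs held the 118, 202 and 481 given above, and a Monocyte-annotated cell held 5, 42 and 129. That fit has 1 peak library, which is assumed to vary like the chronic ones.

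Cluster 6 monocytes, tested the same way, gave 5 of 7699 genes (0.0649%): Bhlhe41, Fcrls and Cd63 higher in chronic libraries and Fpr2 and Jaml lower. Without peak infiltrating a none of the 5 passed (adjusted p = 0.230 to 0.268), and with 1 library left out the count ran from 0 to 112. A fit over both clusters with the library as a block asked whether the chronic against peak difference itself differed between them. By edgeR's quasi-likelihood test, 14 of 5957 genes (0.235%) passed, 10 with the more positive difference in cluster 8 and 4 with the more negative one. DESeq2 called none of them, with 115 genes at an unadjusted p under 0.05. Among the 10 were Ngp, Camp, Ltf, S100a8, S100a9, Lcn2 and Wfdc21, all transcribed by maturing neutrophils. In chronic libraries their UMIs came from a and b: S100a8 summed to 4287, 1845 and 5 UMIs in chronic infiltrating a, b and c. Camp, Ngp and Ltf were at 0 in chronic infiltrating c. The other 3 were Il1b, Ifitm1 and Ly6a. The 2 Ngp and Camp cells described above, 1 each in a and b, supplied 4075 of the 4287 S100a8 UMIs in a and 1844 of the 1845 in b. Restricted to Monocyte-annotated members, 13 genes passed, of which 5 were among the 14, and none was a granule gene.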

How the data were processed

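Droplet single-cell RNA-seq was made from sorted spinal cord cells. The submitters' processing notes name the builds GRCm38 and mm10 and the tools R 4.1.3 and Cell Ranger 3.1.0; their order and settings are not given in the sources used here. The authors deposited raw UMI counts (22598 genes, 22148 cells) and a cell table with each cell's cluster, annotation, mitochondrial percent and log10 total count, the last 2 used only to describe and check depth. No cell was filtered further, and no doublet caller was run. Counts were summed per library and cluster and tested with edgeR 4.0.16 (TMM scaling, quasi-likelihood) over all genes that passed its expression filter, with DESeq2 1.42.0 as an alternative, in libraries with at least 5 cells. In counts simulated for the cluster 8 chronic against peak fit, 76.5% of 98 genes with an absolute log2 change of 2 were recovered. All 99 with a change of 4 were recovered, with 9 false calls in 2440 genes. The simulated variation between libraries was set below the 40.6% fitted for cluster 8, so recovery in the data was not measured. Shares were compared by exact permutation over libraries. Because the cell table gives libraries no replicate number, each library was assigned to its group by sort label and stage. Cluster 6 stands for its cells annotated Monocyte (1429 of 3212), all of its cells being an alternative added after seeing the data. The members and gene lists were chosen with earlier results of these data known. Genes named were the 6 markers, up to 15 per side furthest from cluster 6 with 1 sign in every library and at least 50 UMIs, up to 6 per direction of smallest p with a log2 change of at least 1 in each edgeR comparison, members of the lists, and up to 6 per side found most unequally with Ear2 or Ngp. One gene of the classical list is not reported here by name. Ribosomal, predicted and sex-linked genes were left out. Other genes in the text (Cd74, H2-Aa, S100a9 and those called in other fits) were named after their values were seen.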

Additional observations from a re-analysis of the deposited data

Results flagged for a closer look

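The chronic against peak difference itself differed between cluster 8 and cluster 6 monocytes for 14 genes in edgeR's quasi-likelihood test, in infiltrating libraries. The 10 that the naming rule takes, 6 more positive and 4 more negative in cluster 8, are given here. On the log2 scale, the difference in cluster 8 exceeded that in cluster 6 by 11.65 for Ngp (adjusted p = 2.4e-08), 7.74 for Wfdc21, 5.90 for Lcn2, 5.71 for S100a8, 17.18 for Camp and 16.20 for Ltf. Camp and Ltf had 0 UMIs in cluster 8 at the peak, so their fitted values depend on the prior count and give no size. In cluster 8, Ngp stood at 3901, 1271 and 0 UMIs in chronic infiltrating a, b and c, and at 2 and 0 at the peak. The difference was more negative by -5.49 for Lpl, -3.51 for Timp2, -9.77 for Cxcl2 and -3.22 for Gpnmb. For Timp2 and Gpnmb, cluster 6 rose while cluster 8 held few UMIs. In cluster 6, Timp2 stood at 26.2 and 39.7 CPM at the peak and 129, 464 and 250 in chronic infiltrating a, b and c. Gpnmb stood there at 74.1 and 109, then at 268, 717 and 250. Cluster 8 held 17 and 0, then 4, 4 and 7 Timp2 UMIs, and 10 and 4, then 1, 4 and 5 of Gpnmb. Lpl and Cxcl2 overlapped between stages in cluster 6. Cxcl2 stood at 12 and 0 UMIs in cluster 8 at the peak and 0 in all chronic libraries. Lpl stood at 19 and 0 UMIs at the peak, and at 0, 0 and 8 in chronic infiltrating a, b and c. All 12 Cxcl2 UMIs and all 19 peak Lpl UMIs of cluster 8 came from peak infiltrating a. These calls depend on the processing. Wfdc21 and Lcn2 passed under 8 of 10 alternatives, missing with DESeq2 and over Monocyte-annotated members. S100a8 and Lpl passed under 7 of 10, Timp2 under 6, Cxcl2 under 4 and Gpnmb under 2. Ngp, Camp and Ltf gave a value under 7 alternatives and passed under 5 of them; without chronic infiltrating a or b, and over Monocyte-annotated members, they fell below the filter on low counts, and without peak infiltrating a they missed with an adjusted p of 1.00 in the same edgeR test. For every one of the 10 genes DESeq2 gave no call.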

How the results depend on the processing

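Of 35 alternatives for the shares of libraries, 32 kept direction and call. The chronic resident minus control difference changed sign without control a (0.116) and without chronic resident c (0.0146), and ran from -0.107 to 0.116 with 1 library left out, and infiltrating minus resident in EAE missed the threshold over cells outside microglia (3.12, exact permutation p = 0.0556). In cluster 8, chronic against peak calls rose from 0 to 11 with no filter on low counts and to 7 in libraries with at least 10 cells, and ran from 0 to 7 with 1 library left out. In cluster 6 the 5 calls became 151 with no filter, 41 with DESeq2 and 1 over all cluster 6 cells, and ran from 0 to 112 with 1 library left out (0 without peak infiltrating a, 112 without chronic infiltrating a, 15 without chronic infiltrating c). The 14 genes that differed between clusters became 0 with DESeq2 and ran from 2 to 52 with 1 library left out (6 without peak infiltrating a, 52, 2 and 7 without chronic infiltrating a, b and c). Without peak infiltrating a the differences of Cxcl2, Lpl and Timp2 turned positive: with 1 library left out they ran from -10.71 to 0.42, -11.39 to 3.98 and -3.88 to 4.26. Over Monocyte-annotated cells, an alternative added after seeing the data, the differences of S100a8 (-0.16) and Wfdc21 (-4.57) turned negative. Fits with 1 library left in a group assume that it varies like the others; the cause of these changes was not tested. Genes lower than in cluster 6 numbered 672 with 1 CPM added, and 138 lower and 124 higher with 50 CPM. With 1 library left out, 265 to 355 were higher and 339 to 484 lower. Depth limits every share of cells: 25 of 36 alternatives moved a marker's share beyond its interval. No paired analysis was possible because no replicate number in the cell table links libraries of different groups; the library block ties the 2 clusters of 1 library, and the pools tie libraries only by pool.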
